A study of Caenorhabditis elegans with 10 samples.

Results

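The 10 genes described here are Caenorhabditis elegans genes of cysteine synthesis and breakdown, of hydrogen sulfide handling, and of the pathway that controls the hypoxia-inducible factor HIF-1. They were taken by gene identifier, and all 10 were found among the 13374 gene units of the deposited exonic bin counts and among the 44968 genes of the authors' deposited FPKM table. They are cbs-1 (ZC373.1), cth-1 (F22B8.6), cth-2 (ZK1127.10), cdo-1 (F56F10.3), sqrd-1 (F02H6.5), cysl-2 (K10H10.2), cysl-1 (C17G1.7), rhy-1 (W07A12.7), egl-9 (F22E12.4) and hif-1 (F38A6.3). The set was chosen by function, and with the rises of cysl-2, cth-1 and cbs-1 in CPM at 1 h of feeding already known from these libraries, so those values count as having selected the members. Differences between fed and starved larvae are therefore given for the 10 genes as levels and fitted folds, without a test. Tests are given between fed times and for the use of exonic bins within each gene.

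The libraries were made from polyadenylated RNA of whole L1 larvae of the wild-type strain N2, all from 1 laboratory stock. Embryos hatched in liquid without food and stayed in L1 arrest, a developmental standstill that newly hatched larvae enter when no food is present. The starved group of 3 libraries was collected after about 12 h of arrest. The rest of the culture was then fed with 25 mg/mL of Escherichia coli HB101 at 20 °C, and larvae were collected 1 h (2 libraries), 3 h (2 libraries) and 6 h (3 libraries) later. No larvae kept without food for the same extra hours were used here, so feeding and elapsed time cannot be told apart. Nothing in the labels says which libraries came from separate cultures, so p-values measure the spread between these libraries, which may be technical. In whole animals, fewer cells of a type and less RNA per cell cannot be told apart either.

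Cystathionine beta-synthase joins homocysteine from the methionine cycle with serine, and cystathionine gamma-lyase splits the product to give cysteine. Both enzymes can also release hydrogen sulfide, which is a signal at low levels and blocks mitochondrial respiration at high ones. In C. elegans, hydrogen sulfide promotes binding of CYSL-1 to the prolyl hydroxylase EGL-9. That binding keeps EGL-9 from marking HIF-1 for destruction, and HIF-1 in turn raises transcription of genes that dispose of sulfide and cyanide. The membrane protein RHY-1 restrains this route and is itself a HIF-1 target.

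The bin counts summed to between 19163997 and 38607167 per library, and between 8.346% and 11.37% of reads lay outside the bins. Of the 8 single-gene tissue markers measured, 2 were called higher and 2 lower (edgeR adjusted p under 0.05) at 1 h of feeding than in starved larvae. Of all units, 20.4% were called higher and 18.7% lower. The hypodermal regulator elt-3 and the intestinal regulator elt-2 were higher. Lower were the intestinal esterase gene ges-1 and the body muscle myosin gene myo-3. Summed over the 8 markers, levels ran from 1550 to 2713 CPM (counts per 1000000 counts, scaled by TMM factors) in starved larvae, from 1245 to 1636 CPM at 1 h, from 1055 to 1211 CPM at 3 h and from 1140 to 1632 CPM at 6 h. The myosin genes weighed most in the starved sum, with 690 to 1665 CPM for the pharyngeal myo-2 and 402 to 624 CPM for myo-3. Against starved larvae, 1 of the 8 was called higher after 3 h and 2 lower (beside 21.9% and 19.7% of all units), and after 6 h 1 was higher and 3 lower (beside 27% and 25%). At 3 h against 1 h of feeding, edgeR called 0 of the 8 higher (also 0 at an unadjusted p under 0.05, and 0 by DESeq2), beside 4.79% of all units. It called 2 lower (ges-1 and myo-3), beside 4.6%. At 6 h against 3 h edgeR called 1 of the 8 higher, ges-1 with a log2 fold change of 1.55 (edgeR adjusted p = 0.000402), beside 2.1% of all units. It called 0 lower (also 0 at an unadjusted p under 0.05, and 0 by DESeq2), beside 0.665%. The part of these markers in the changes below was not tested. The 4 sperm and yolk genes that mark adults were between 0 and 1.49 FPKM at every time in the authors' deposited table.

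**Figure D1:**
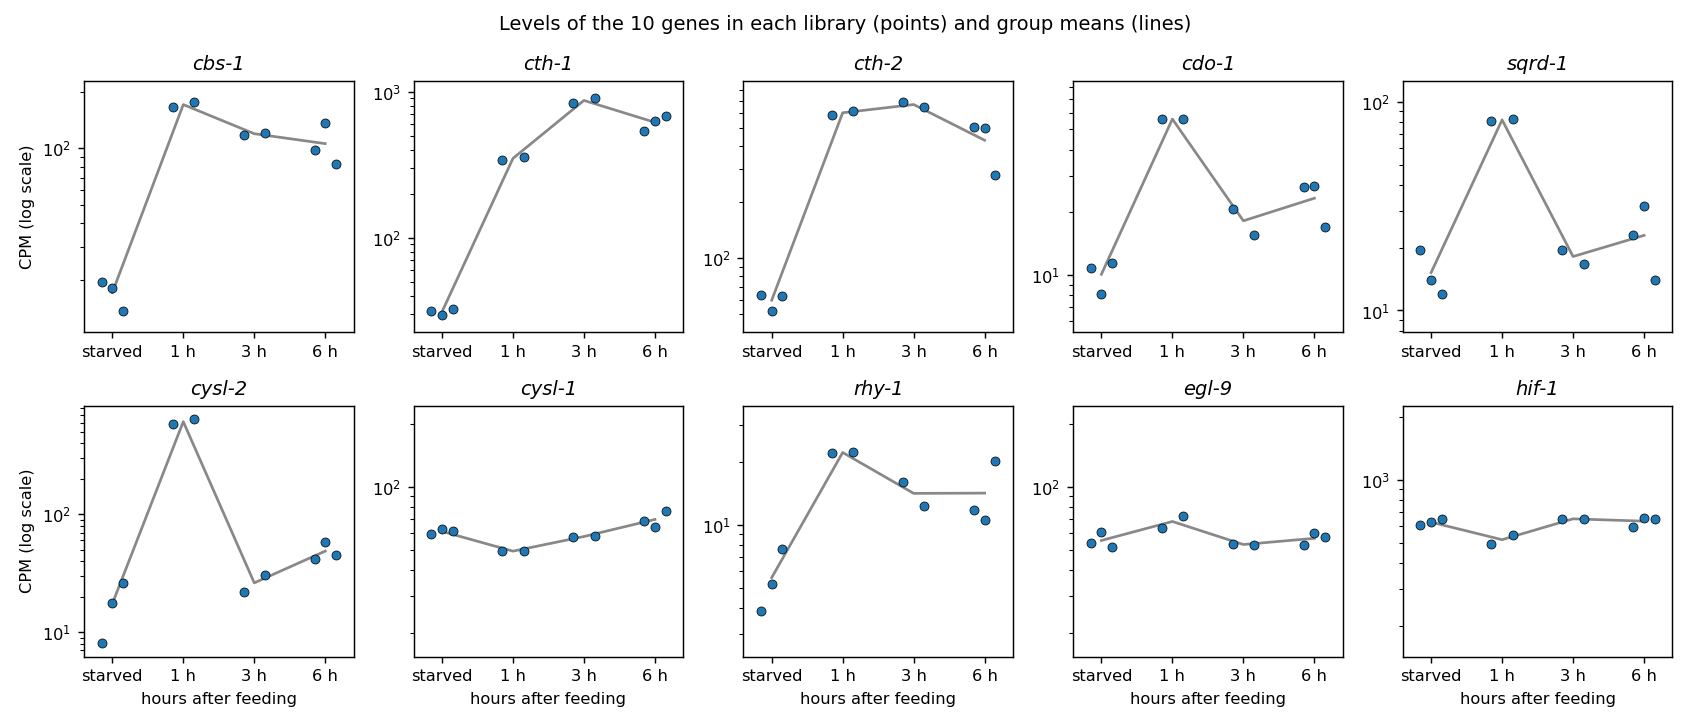
Level of each of the 10 genes in CPM on a log axis, by time after feeding. Each point is a library and each line joins group means. For cysl-2 the 1 h libraries stand at 579 and 641 CPM and all other libraries at 58.7 CPM or below, while cth-1 is highest at 3 h.

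Of the cysteine-making enzymes, cbs-1 was highest at 1 h of feeding and both cystathionine gamma-lyase genes, cth-1 and cth-2, had their highest group mean in CPM at 3 h. The gene cbs-1 encodes cystathionine beta-synthase and lies on chromosome X from 10054213 to 10057460 on the plus strand of the deposited WS210 gene models. Its levels were 19.5, 18.0 and 13.7 CPM in starved larvae, 167 and 176 CPM at 1 h, 118 and 121 CPM at 3 h, and 97.9, 137 and 83.1 CPM at 6 h. Every fed library was above every starved one, and both 1 h libraries were above the other 8. Relative to starved larvae, the fitted level was 10.0-fold after 1 h, 7.0-fold after 3 h and 6.20-fold after 6 h.

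The gene cth-1 (chromosome V, 16100629 to 16102718, plus strand) had 31.3, 29.4 and 32.7 CPM in starved larvae, 339.8 and 359 CPM at 1 h, 831 and 908 CPM at 3 h, and 540.5, 630.4 and 677 CPM at 6 h. No group overlapped another, and the order of the groups was 3 h, 6 h, 1 h and starved from high to low. Its second family member cth-2 (chromosome II, 7056111 to 7057953, minus strand) had 63.7, 52.1 and 62.8 CPM in starved larvae, 589 and 620.5 CPM at 1 h, 688 and 650.3 CPM at 3 h, and 509.6, 499 and 281 CPM at 6 h. The third 6 h library was low for cth-2 and the highest of its group for cth-1. Relative to starved larvae, cth-1 was 11.2-fold after 1 h, 27.9-fold after 3 h and 19.8-fold after 6 h, whereas cth-2 was 10.16-fold, 11.2-fold and 7.23-fold at those times.

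Both cth genes are lyases of one family, so their levels were also compared as a ratio within each library, which no scaling between libraries can move. Per length, cth-1 over cth-2 was 0.522, 0.598 and 0.553 in starved larvae and 0.612 and 0.613 after 1 h. The ratio was 1.28 and 1.48 after 3 h and 1.12, 1.34 and 2.55 after 6 h. The gene cth-2 was thus the more abundant of the pair in all 5 starved and 1 h libraries, and cth-1 in all 5 later ones. The sources used here do not state how reads shared between related genes were placed.

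**Figure D2:**
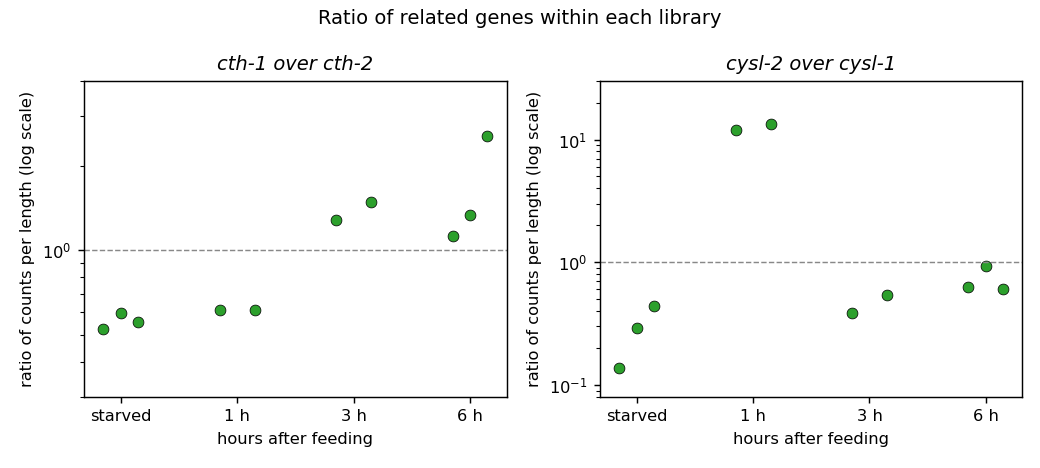
Ratio of counts per length within each library, on a log axis, for cth-1 over cth-2 (left) and cysl-2 over cysl-1 (right), by time after feeding; the dashed line marks equal levels. The cth ratio is below 1 in starved and 1 h libraries and above 1 later, and the cysl ratio is above 1 in the 1 h libraries, at 12.1 and 13.3.

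Both oxidation genes among the 10, cdo-1 and sqrd-1, were highest at 1 h, and cdo-1 alone of the pair kept every later fed library above the starved ones. Cysteine dioxygenase, encoded by cdo-1, oxidizes surplus cysteine to cysteine sulfinate. It had 10.8, 8.10 and 11.4 CPM in starved larvae, 56.1 and 55.96 CPM at 1 h, 20.8 and 15.6 CPM at 3 h, and 26.4, 26.7 and 16.9 CPM at 6 h. Starved libraries were lowest, 1 h libraries highest, and the 3 h and 6 h libraries overlapped in between. The gene lies on chromosome X from 862334 to 863851 on the minus strand, and 37.65% of its counts fell in a bin that it shares with the opposite-strand gene F56F10.2. With bins shared with another gene left out, the log2 fold change of cdo-1 at 3 h against 1 h was -1.72 in place of -1.62.

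The gene sqrd-1 (chromosome IV, 14219842 to 14224407, plus strand) encodes the mitochondrial sulfide:quinone oxidoreductase, which takes electrons from hydrogen sulfide into the respiratory chain. Its levels were 19.5, 14.1 and 12.0 CPM in starved larvae, 81.4 and 82.6 CPM at 1 h, 19.5 and 16.7 CPM at 3 h, and 22.9, 31.8 and 14.0 CPM at 6 h. Only at 1 h did the fed libraries stand clear of the starved ones, since the 3 h and the 6 h ranges both overlapped the starved range. At 1 h the fitted level relative to starved larvae was 5.4-fold for sqrd-1 and 5.57-fold for cdo-1. For cdo-1 the level was 1.81-fold after 3 h and 2.32-fold after 6 h. In sqrd-1, 12.25% of counts fell in 2 bins shared with other genes, and smaller shares did so in cth-2 (6.878%) and cysl-2 (3.834%).

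The gene cysl-2 had the widest range of the 10. It encodes a cysteine synthase family enzyme that binds cyanide to cysteine and releases hydrogen sulfide, is an established transcriptional target of HIF-1, and lies on chromosome II from 14492730 to 14494417 on the minus strand. Its levels were 8.05, 17.8 and 26.4 CPM in starved larvae, 579 and 641 CPM at 1 h, 21.9 and 30.5 CPM at 3 h, and 42.2, 58.7 and 45.4 CPM at 6 h. The 3 h libraries overlapped the starved ones, and the 6 h libraries were above both. The fitted level relative to starved larvae was 35.1-fold after 1 h, 1.51-fold after 3 h and 2.80-fold after 6 h.

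The sulfide sensor gene cysl-1 (chromosome X, 9952496 to 9954474, minus strand) stayed within a range of 49.0 to 76.6 CPM over all 10 libraries. It had 59.4, 62.7 and 61.4 CPM in starved larvae, 49.0 and 49.3 CPM at 1 h, 57.7 and 58.0 CPM at 3 h, and 68.6, 64.2 and 76.6 CPM at 6 h. Both 1 h libraries were below the other 8. Per length, cysl-2 over cysl-1 was 0.138, 0.290 and 0.439 in starved larvae, 12.1 and 13.3 after 1 h, 0.388 and 0.538 after 3 h, and 0.628, 0.934 and 0.605 after 6 h, so cysl-2 was the more abundant of the pair in the 1 h libraries and the less abundant in the other 8.

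Among the regulators, rhy-1 was higher in every fed library than in any starved one, while egl-9 and hif-1 moved little. The gene rhy-1 encodes a predicted multi-pass membrane acyltransferase that inhibits HIF-1 signalling, and lies on chromosome II from 9161300 to 9163525 on the plus strand. It had the lowest counts of the 10 genes, with 101 to 641 counts per library, and 22.61% of its counts fell in a bin shared with the opposite-strand gene W07A12.8. Its levels were 3.87, 5.19 and 7.68 CPM in starved larvae, 22.0 and 22.4 CPM at 1 h, 16 and 12.3 CPM at 3 h, and 11.8, 10.6 and 20.2 CPM at 6 h. The 6 h libraries spread across the whole 3 h range, and the fitted level relative to starved larvae was 4.00-fold after 1 h, 2.54-fold after 3 h and 2.55-fold after 6 h.

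The prolyl hydroxylase gene egl-9 (chromosome V, 10468384 to 10476925, plus strand) had 53.96, 60.4 and 51.6 CPM in starved larvae, 63.7 and 72.8 CPM at 1 h, 53.2 and 52.6 CPM at 3 h, and 52.4, 59.9 and 57.7 CPM at 6 h. The transcription factor gene hif-1 (chromosome V, 20780374 to 20785225, plus strand) had 609, 624 and 646 CPM in starved larvae, 490.6 and 542 CPM at 1 h, 651 and 649 CPM at 3 h, and 597, 655 and 649 CPM at 6 h. Both 1 h libraries were the highest of all for egl-9 and the lowest of all for hif-1. At 1 h against starved, the fitted level was 1.23-fold for egl-9, 0.824-fold for hif-1 and 0.804-fold for cysl-1. These are transcript levels, and HIF-1 activity is set largely by protein stability, which was not measured.

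The fed and starved libraries did not overlap for 10 of 10 genes at 1 h, 7 of 10 at 3 h and 7 of 10 at 6 h, beside 61.6%, 62.6% and 55.3% of all units. The 3 comparisons share the starved libraries. The members' choice rested on such values, so nothing is read from these counts. Both 1 h libraries were above the other 8 for 6 genes (cysl-2, cbs-1, cdo-1, sqrd-1, egl-9 and rhy-1), beside 9.58% of all units. They were below the other 8 for 2 genes (cysl-1 and hif-1), beside 7.81% of all units. The 1 h rises of cysl-2, cth-1 and cbs-1 were known when the members were chosen. Nothing is therefore read from the counts of 1 h extremes either.

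Between 1 h and 3 h of feeding, 4 of the 10 genes changed past the threshold, beside 9.38% of all units, with 1 higher (beside 4.79%) and 3 lower (beside 4.6%). This comparison shares the 1 h libraries with the known rises, so a fall here is not independent of them. At 3 h against 1 h, cysl-2 averaged 26.2 ± 6.10 CPM at 3 h and 610.4 ± 43.8 CPM at 1 h (SD, n = 2 each), a log2 fold change of -4.54 ± 0.43 (SE; edgeR adjusted p = 3.64e-05). The gene sqrd-1 averaged 18.1 ± 2.0 CPM at 3 h and 82.0 ± 0.886 CPM at 1 h, a log2 fold change of -2.18 ± 0.32 (edgeR adjusted p = 0.000716). For cdo-1 the averages were 18.2 ± 3.68 CPM at 3 h and 56.01 ± 0.0709 CPM at 1 h, a log2 fold change of -1.62 ± 0.25 (edgeR adjusted p = 0.00114).

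In the opposite direction, cth-1 rose further, averaging 870 ± 54.2 CPM at 3 h and 349 ± 13.5 CPM at 1 h, a log2 fold change of 1.32 ± 0.19 (edgeR adjusted p = 0.000724). The other 6 genes did not pass the threshold at 3 h against 1 h. Their log2 fold changes were -0.65 ± 0.33 for rhy-1, -0.52 ± 0.23 for cbs-1, -0.37 ± 0.17 for egl-9, 0.15 ± 0.25 for cth-2, 0.23 ± 0.16 for cysl-1 and 0.33 ± 0.18 for hif-1 (SE), with edgeR adjusted p between 0.19 and 0.782. The median log2 fold change of the 10 genes was -0.44, beside -0.01 over all units. In all 10 genes the 3 h and 1 h libraries did not overlap, as was the case for 65.4% of all units. The calls of cysl-2, sqrd-1, cdo-1 and cth-1 held under all 19 alternative settings. Those settings reuse the same libraries, so they do not bear on the dependence on the known 1 h rises.

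Between 3 h and 6 h of feeding, where no library is shared with the comparison of 1 h against starved larvae, 0 of the 10 genes passed edgeR's threshold, beside 2.77% of all units (2.1% higher and 0.665% lower). DESeq2 called 1 of 10, beside 490 units higher and 192 lower of 12593. Counts at an unadjusted p have no share of all units beside them here or below, and nothing is read from them. At an edgeR unadjusted p under 0.05 there were 3 of 10. These 3 were cth-1, with 616 ± 69.2 CPM at 6 h and 870 ± 54.2 CPM at 3 h and a log2 fold change of -0.50 ± 0.17 (edgeR adjusted p = 0.159), cth-2 with -0.64 ± 0.23 (0.188 likewise adjusted), and cysl-2 with 0.89 ± 0.35 (0.256 likewise adjusted). The groups did not overlap for 4 of 10 genes, beside 32.6% of all units. For the other 7 genes the log2 fold change at 6 h against 3 h lay between -0.18 for cbs-1 and 0.36 for cdo-1. The median of the 10 was 0.05, beside 0.01 over all units.

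**Figure D3:**
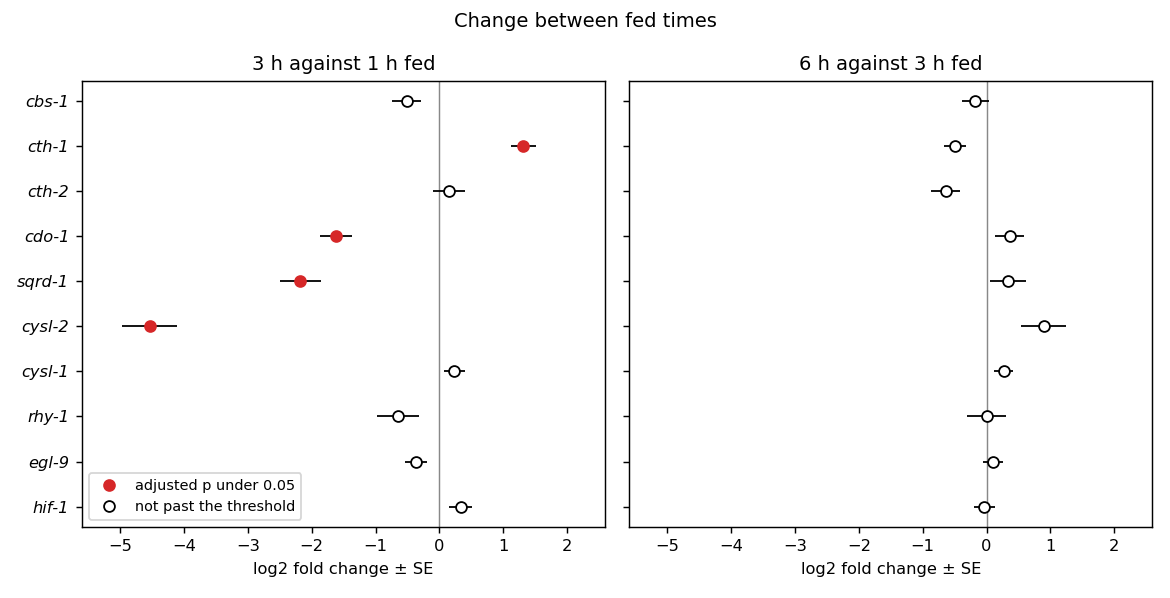
Log2 fold change of each of the 10 genes at 3 h against 1 h of feeding (left) and 6 h against 3 h (right), with bars of 1 SE; filled points passed an adjusted p of 0.05. On the left cysl-2, sqrd-1 and cdo-1 lie below 0 and cth-1 above it as filled points, and on the right all 10 points are open.

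The order of the genes by level per length changed with feeding. In starved larvae hif-1 was the most abundant of the 10 at 212 ± 6.15 CPM per kb (SD, n = 3), followed by cysl-1 at 48.6 ± 1.29 CPM per kb, cth-2 and cth-1. The last of the order were egl-9, cysl-2, cdo-1, sqrd-1 and cbs-1, each overlapping the next in its library range, and then rhy-1 at 3.06 ± 1.06 CPM per kb. At 1 h the order ran cysl-2, cth-2, cth-1, hif-1, cbs-1, cdo-1, sqrd-1, cysl-1, egl-9 and rhy-1, with no overlap between neighbours, and cysl-2 stood at 495 ± 35.5 CPM per kb.

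At 3 h of feeding cth-1 led at 661 ± 41.2 CPM per kb, followed by cth-2, hif-1, cbs-1 and cysl-1, while cysl-2, egl-9 and cdo-1 overlapped one another in succession. At 6 h cth-1 still led at 468 ± 52.6 CPM per kb (SD, n = 3), and the ranges of cth-2 and hif-1 overlapped, as did those of cysl-1 and cbs-1. The library ranges of cbs-1 and cysl-2, cdo-1 and egl-9, egl-9 and sqrd-1, and sqrd-1 and rhy-1 overlapped likewise at 6 h. Across all 10 libraries hif-1 kept between 166 and 221 CPM per kb. The ratio of egl-9 to hif-1 per length was 0.0910, 0.0995 and 0.0822 in starved larvae and 0.133 and 0.138 after 1 h. It was 0.0840 and 0.0834 after 3 h, and 0.0903, 0.0940 and 0.0914 after 6 h. That the 1 h libraries were the highest in that ratio follows from their being highest for egl-9 and lowest for hif-1.

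Over the 10 libraries, which share the time course, the genes with the largest changes followed courses that graded into each other. The log2 CPM of cysl-2 had a Pearson r of 0.91 with cdo-1 and 0.89 with sqrd-1, whereas that of cth-2 had 0.98 with cbs-1 and 0.95 with cth-1. The genes of the first course had their peak at 1 h and had fallen by 3 h. Those of the second stayed high to 6 h, though cbs-1 among them also had its peak at 1 h. Between the courses, r ran from 0.31 for sqrd-1 with cth-1 through 0.67 for cysl-2 with cbs-1 to 0.84 for cdo-1 with cbs-1. The gene rhy-1 was near both, with an r of 0.77 with cysl-2 and 0.84 with cbs-1, and hif-1 had an r of -0.85 with sqrd-1. These are descriptions over 10 libraries in 4 groups.

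Of 7 genes known as HIF-1 targets outside the 10, ftn-1 is known to be repressed by HIF-1 and the others to be induced. At 1 h against starved larvae edgeR called 4 of the 7 higher (F22B5.4, smf-3, phy-2 and cyp-36A1), beside 20.4% of all 13226 units tested. It called 2 lower (ftn-1 and fmo-2), beside 18.7%. The list was chosen with earlier results of these data known, so nothing is read from these counts against starved larvae. At 3 h against 1 h, which shares the 1 h libraries, edgeR called 3 lower (F22B5.4, nhr-57 and smf-3), beside 4.6% of all units. It called 1 higher (ftn-1), beside 4.79%. F22B5.4, a gene often used as a reporter of HIF-1, had 5.21, 5.6 and 9.90 CPM in starved larvae, 31.5 and 37.8 CPM at 1 h, 4.64 and 6.03 CPM at 3 h, and 3.07, 2.82 and 6.72 CPM at 6 h. Its 1 h libraries were alone above 10 CPM, and it fell at 3 h against 1 h by a log2 fold change of -2.70 ± 0.40 (edgeR adjusted p = 0.000876). The nuclear receptor gene nhr-57 had 20.0, 17.7 and 23.5 CPM in starved larvae, 29.0 and 26.4 CPM at 1 h, 9.83 and 6.37 CPM at 3 h, and 8.47, 11.9 and 12.6 CPM at 6 h. Its 3 h and 6 h libraries were below all the others, with a log2 fold change of -1.78 ± 0.26 at 3 h against 1 h (edgeR adjusted p = 0.000755).

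A pair of iron genes in that list, smf-3 and ftn-1, were at opposite extremes at 1 h. Whether HIF-1 had a part in the courses of the 7 targets was not tested. The iron importer gene smf-3 had 7.24, 5.55 and 5.76 CPM in starved larvae, 22.1 and 18.6 CPM at 1 h, 5.46 and 6.37 CPM at 3 h, and 2.10, 3.10 and 3.98 CPM at 6 h. The ferritin gene ftn-1 had 71.5, 81.9 and 52.4 CPM in starved larvae, 2.29 and 2.20 CPM at 1 h, 13.3 and 13.3 CPM at 3 h, and 47.7, 26.5 and 15.3 CPM at 6 h. The 1 h libraries were the highest of all for smf-3 and the lowest of all for ftn-1. At 3 h against 1 h, smf-3 changed by -1.78 ± 0.30 and ftn-1 by 2.57 ± 0.43 on the log2 scale (edgeR adjusted p = 0.00197 and 0.00241).

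The remaining targets had other courses. The flavin monooxygenase gene fmo-2, known to be induced by HIF-1, had between 1.17 and 3.74 CPM in all 7 fed libraries, against 99.0, 171 and 151 CPM in starved larvae. The collagen prolyl hydroxylase gene phy-2 had 62.7, 97.0 and 68.9 CPM at 6 h against 36.4 and 40.1 CPM at 3 h, a log2 fold change of 0.99 ± 0.20 (edgeR adjusted p = 0.0136). The cytochrome P450 gene cyp-36A1 had 28.9, 30.9 and 27.2 CPM at 6 h against 52.8 and 61.3 CPM at 3 h, a log2 fold change of -0.97 ± 0.19 (edgeR adjusted p = 0.00972). At 6 h against 3 h DESeq2 called 3 of the 7 higher and 2 lower, beside 490 higher and 192 lower of 12593 units. By edgeR the 2 calls among the 7 were phy-2 and cyp-36A1, beside 2.1% of all units higher and 0.665% lower. Both calls were lost without 3 h replicate 1 (0.93 for phy-2 and -1.08 for cyp-36A1, edgeR adjusted p = 0.22 and 0.0564) and without 3 h replicate 2 (1.07 and -0.86, edgeR adjusted p = 0.141 and 0.178). The median log2 fold change of the 7, in which ftn-1 stands with the induced genes under its own sign, was -0.91 at 3 h against 1 h, beside -0.01 over all units, and 0.44 at 6 h against 3 h, beside 0.01 over all units.

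**Figure D4:**
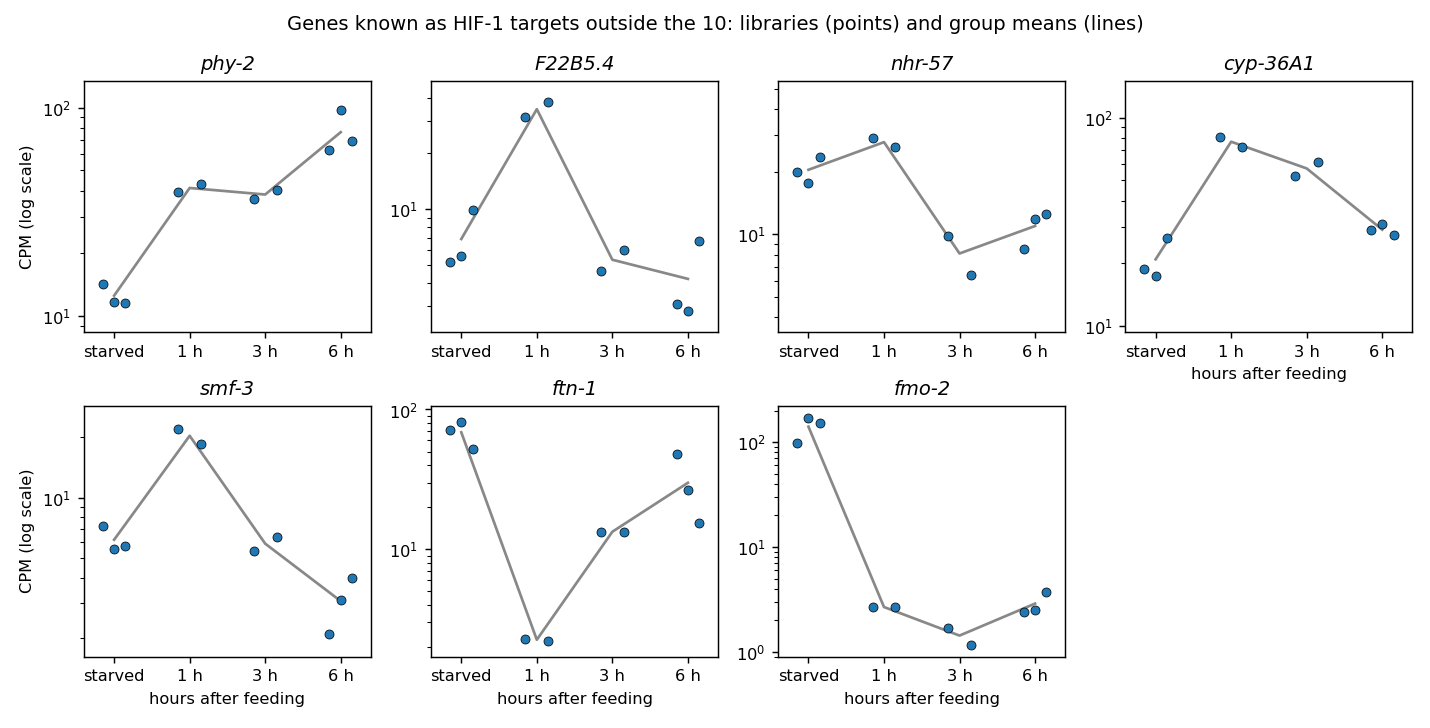
Level of 7 known HIF-1 targets outside the 10 genes, in CPM on a log axis, by time after feeding; points are libraries and lines join group means. F22B5.4 and smf-3 peak at 1 h, ftn-1 is lowest at 1 h, and fmo-2 is at 3.74 CPM or below in fed libraries and at 98.99 CPM or above in starved ones.

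For the partner and the degradation machinery of HIF-1, the 6 genes measured were aha-1 (the partner subunit), vhl-1 (which recognizes hydroxylated HIF-1), elb-1, elc-1 and rbx-1 (subunits of the ubiquitin ligase) and swan-1 (a WD-repeat protein reported to bind EGL-9). By edgeR 0 of 6 were called at 3 h against 1 h (beside 9.38% of all units) and 0 of 6 at 6 h against 3 h (beside 2.77%), counts near the share of all units, with 0 of 6 at an unadjusted p under 0.05 and 0 of 6 by DESeq2 in either comparison. Levels of vhl-1 ran from 3.64 to 10.19 CPM over the 10 libraries, and those of aha-1 from 52.2 to 65.0 CPM. The median log2 fold change of the 6 genes was 0.21 at 3 h against 1 h and 0.09 at 6 h against 3 h.

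Downstream uses of cysteine and sulfide differed by gene. Of 2 glutathione synthesis genes, edgeR called 1 higher at 3 h against 1 h. Of 4 sulfide and sulfite genes it called 1 higher and 1 lower in that comparison, beside 4.79% and 4.6% of all units. Glutathione synthetase, gss-1, had 72.9 and 86.6 CPM at 3 h against 53.0 and 49.3 CPM at 1 h, a log2 fold change of 0.64 ± 0.17 (edgeR adjusted p = 0.0272), while the first enzyme of glutathione synthesis, gcs-1, had -0.23 ± 0.16 and did not pass (edgeR adjusted p = 0.431). At 6 h against 3 h edgeR called 0 of these 2 genes, beside 2.77% of all units. DESeq2 called 0 of 2, and 2 of 2 had an edgeR unadjusted p under 0.05, with no share of all units to set beside that. Sulfite oxidase, suox-1, which removes the toxic sulfite formed from cysteine, had 27.2 and 32.7 CPM at 3 h against 15.1 and 16.1 CPM at 1 h, a log2 fold change of 0.94 ± 0.21 (edgeR adjusted p = 0.0104). The persulfide dioxygenase gene ethe-1, which acts after SQRD-1, had 4.31 and 3.45 CPM at 3 h against 7.64 and 7.69 CPM at 1 h, a log2 fold change of -0.98 ± 0.29 (edgeR adjusted p = 0.0459), and its starved libraries had 24.7, 15.9 and 16.7 CPM. The 3 calls rest on few libraries: gss-1 and ethe-1 each lost theirs without any 1 of the 4 libraries compared, with log2 fold changes of 0.51 to 0.76 (edgeR adjusted p = 0.0687 to 0.282) and -1.15 to -0.83 (edgeR adjusted p = 0.126 to 0.326). The call of suox-1 was lost without 1 h replicate 1 (0.91), without 1 h replicate 2 (0.98) and without 3 h replicate 2 (0.80), with edgeR adjusted p of 0.097, 0.0835 and 0.135, and that of ethe-1 also without 6 h replicate 2 (-0.98, edgeR adjusted p = 0.0528).

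Mercaptopyruvate sulfurtransferases carry sulfur from a product of cysteine. Among 4 sulfide and sulfite genes edgeR called 1, mpst-7, at 6 h against 3 h, beside 2.77% of all units. DESeq2 called 1 of 4, beside 490 higher and 192 lower of 12593 units. An edgeR unadjusted p under 0.05 was reached by 3 of 4, with no share of all units to set beside that. The gene mpst-7 had 41.7, 46.8 and 50.7 CPM at 6 h against 22.3 and 19.9 CPM at 3 h, a log2 fold change of 1.14 ± 0.25 (edgeR adjusted p = 0.0256). In starved larvae mpst-7 had 4.06, 2.40 and 5.42 CPM, below every fed library. The 4 genes had a median log2 fold change of -0.13 at 3 h against 1 h, beside -0.01 over all units. At 6 h against 3 h their median was 0.53, beside 0.01 over all units. For synthesis of the molybdenum cofactor that sulfite oxidase needs, edgeR called 0 of 4 genes (moc-1, moc-2, moc-3 and moc-5) in either comparison, beside 9.38% of all units at 3 h against 1 h and 2.77% at 6 h against 3 h, with 0 of 4 and 1 of 4 at an unadjusted p under 0.05 at 3 h against 1 h and at 6 h against 3 h, and 0 of 4 by DESeq2 in both. The call of mpst-7 was lost without either 1 h library (edgeR adjusted p = 0.0513 and 0.0517), without either 3 h library (1.22 and 1.06 on the log2 scale, edgeR adjusted p = 0.183 and 0.297), and without 6 h replicate 2 or 3 (edgeR adjusted p = 0.0613 and 0.0661).

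The use of exonic bins within the 10 genes was tested against starved larvae, since a share within a gene does not depend on its level. By edgeR's exon-level test with Simes adjustment per gene, 0 of 10 genes were called at 1 h (beside 0.374% of 11772 genes), 0 of 10 at 3 h (beside 0.195%) and 0 of 10 at 6 h (beside 0.552%). At an unadjusted Simes p under 0.05 there were 0, 0 and 1 of 10. The 1 was cbs-1 at 6 h, whose Simes p adjusted over all genes by edgeR was 0.676. DESeq2 was not run on bins. The last 148 bases of the cbs-1 models, at X from 10057313 to 10057460, belong to the longer of 2 annotated transcripts, ZC373.1.1, and not to ZC373.1.2. That bin held 6.67%, 10.23% and 7.17% of the gene's counts in starved larvae, 7.35% and 7.99% after 1 h, 7.70% and 6.66% after 3 h, and 5.34%, 2.63% and 4.67% after 6 h, so the 6 h libraries were below all the others. Relative to the whole gene at 6 h against starved, the log2 change of this bin was -0.72 and that of the bin before it -0.56, while bins 2 to 5 were at 0.72 to 0.87. Bins 6 to 9 lay between these, at 0.08, 0.14, 0.20 and 0.0011, and bin 10 was at -0.15. None of these bins passed (edgeR bin adjusted p = 0.345 or above), and the cause of the differences was not tested.

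**Figure D5:**
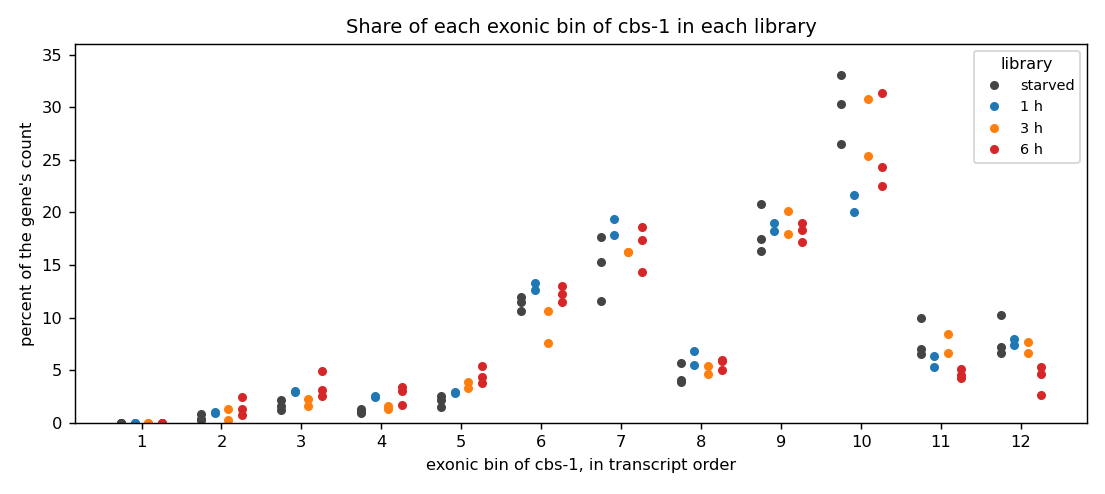
Percent of the cbs-1 count that fell in each of its 12 exonic bins, in transcript order, with a point for each library coloured by time. The last bin, which belongs to the longer transcript alone, held between 2.63% and 5.34% at 6 h and between 6.66% and 10.23% in the other libraries.

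In the authors' deposited table, where libraries of a time were pooled, the 2 cbs-1 transcripts had estimates of 6.51 FPKM for ZC373.1.1 and 3.55 FPKM for ZC373.1.2 in starved larvae. In that same deposited table the authors' values were 52.2 and 47.1 FPKM at 1 h, 23.8 and 29.6 FPKM at 3 h, and 12.4 and 34.7 FPKM at 6 h, in the same transcript order. The longer transcript thus made up 64.7% of the gene's FPKM in starved larvae, 52.5% after 1 h, 44.6% after 3 h and 26.4% after 6 h, with no replicates behind these authors' deposited values. For cth-2 the authors' deposited table gave transcript ZK1127.10.1 58.7% of the gene's FPKM in starved larvae, 34.5% after 1 h, 42.4% after 3 h and 38.4% after 6 h. These shares have no replicates either. A bin of 144 bases, in ZK1127.10.1 and not in ZK1127.10.2, is shared with the opposite-strand gene ZK1127.3. In the exon-level test of edgeR, cth-2 had an unadjusted Simes p of 0.686, 0.345 and 0.354 at 1, 3 and 6 h against starved larvae.

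Gene totals in the authors' deposited table ran from starved through 1, 3 and 6 h as follows. For cysl-2 the authors' deposited FPKM were 19.2, 671, 21.4 and 39.4, and for cth-1 they were 33.7, 390, 728 and 506. For cth-2 the authors' deposited FPKM peaked at 1 h and not at 3 h, with 57.2, 668, 524 and 333, whereas the CPM of the 1 h and 3 h libraries differed by a log2 fold change of 0.15 ± 0.25 at 3 h against 1 h. For hif-1 the authors' deposited FPKM were 372, 313, 308 and 285. The level of hif-1 at 3 h was thus below that at 1 h in the deposited FPKM and above it in CPM, 2 values scaled in different ways.

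By a rule of highest Pearson r in log2 CPM over the 10 libraries, among 9340 other named single genes, the nearest courses to cysl-2 were those of the nitrilase family gene nit-1 (r = 0.978), the peroxisomal gene prx-11 (0.961) and B0272.4 (0.960). The levels of nit-1 were 5.73 ± 1.55 CPM in starved larvae, 67.0 ± 4.33 CPM at 1 h, 7.35 ± 0.815 CPM at 3 h and 8.99 ± 2.92 CPM at 6 h. Nearest to sqrd-1 were the cytochrome P450 genes cyp-29A2 (r = 0.977) and cyp-13B1 (0.961) and the acyl-CoA dehydrogenase family gene acds-10 (0.970). The levels of cyp-13B1 were 4.34 ± 0.470 CPM in starved larvae, 124 ± 18.0 CPM at 1 h, 11.8 ± 4.17 CPM at 3 h and 15.7 ± 6.63 CPM at 6 h. All of these genes had their highest group mean at 1 h.

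For cth-1 the nearest courses were those of cri-3 (r = 0.997), C43E11.9 (0.997) and the neprilysin family gene nep-22 (0.997), each with its highest group mean at 3 h. The levels of cri-3 were 52.1 ± 0.813 CPM in starved larvae, 320.4 ± 43.5 CPM at 1 h, 626 ± 8.48 CPM at 3 h and 530.3 ± 78.2 CPM at 6 h. For cbs-1 they were the Jumonji domain gene jmjc-1 (r = 0.996), the DnaJ domain gene dnj-11 (0.994) and C17G10.1 (0.993), each with its highest group mean at 1 h. The levels of dnj-11 were 28.9 ± 5.78 CPM in starved larvae, 315 ± 5.14 CPM at 1 h, 207 ± 17.6 CPM at 3 h and 159 ± 19.6 CPM at 6 h. With 9340 candidates and 10 libraries in 4 groups, such values describe the courses.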

How the data were processed

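Whole-larva mRNA-seq libraries (3 starved, 2 at 1 h, 2 at 3 h and 3 at 6 h of feeding) were analysed from the authors' files. The deposited counts are reads per exonic bin, made with DEXSeq's preparation and counting scripts per the deposited notes. The sources used here do not give that step's strand setting. Alignment used TopHat and Bowtie (version 0.12.7), tools that the submitters' processing notes list. The authors' deposited FPKM came from cuffdiff run on the libraries of each time together, per the deposited notes, and carry no replicate error.

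Bin counts were summed to 13374 gene units (257 of them merged overlapping genes) over 108516 bins; symbols were matched for 12916 of 13117 single units from RefSeq's gene table. The counts of all 10 libraries entered 1 fit per unit (edgeR 4.0.16 quasi-likelihood, R 4.3.3, TMM, low-count filter keeping 13226 units, robust, 6 residual degrees of freedom, common biological coefficient of variation 0.206), with p-values adjusted over all units. CPM were scaled by TMM factors (0.813 to 1.20). Use of bins within genes was compared by diffSpliceDGE of edgeR. Alternatives included DESeq2 1.42.0. Scripts were tested on simulated data. No pair of replicate libraries agreed within sampling noise (lowest chi-square per degree of freedom 22.1). The members, gene lists and tests were chosen with earlier results of these data known. Genes named are the 10 members, up to 4 genes per list and tested comparison past the threshold, list genes at 0, and the 3 nearest courses to each of cysl-2, cth-1, cbs-1 and sqrd-1. Other genes, fmo-2, aha-1 and vhl-1 among them, and the cbs-1 and cth-2 transcripts were named after their values were seen. Precision is limited by 2 or 3 libraries a group.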

Additional observations from a re-analysis of the deposited data

How the results depend on the processing

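The calls of cysl-2, sqrd-1, cdo-1 and cth-1 at 3 h against 1 h held under all 19 alternatives, with edgeR or DESeq2 adjusted p no higher than 0.00149, 0.0197, 0.0332 and 0.0207 in that order. These alternatives reuse the same libraries, so they do not bear on how the members were chosen. With only the 2 compared groups in the fit, 7 of the 10 genes were called at 3 h against 1 h in place of 4. Beside them stood 2020 units higher and 1742 lower of 13106, in place of 633 and 608 of 13226. In such a fit 1 of 10 (cysl-2) was called at 6 h against 3 h in place of 0, beside 292 units higher and 77 lower of 12837. DESeq2 called 1 of 10 (cth-1) at 6 h against 3 h, beside 490 units higher and 192 lower of 12593. Of the 10 list genes named as changed between fed times, F22B5.4, nhr-57, smf-3 and ftn-1 held under all 19 alternatives. With library totals alone gss-1 (0.27, edgeR adjusted p = 0.324) and suox-1 (0.57, edgeR adjusted p = 0.0784) lost the call, and gss-1 also with bins overlapping no other gene (0.46, edgeR adjusted p = 0.145). The calls of ethe-1, phy-2, cyp-36A1 and mpst-7 were lost only with 1 library left out. Where that leaves a lone library in a group, it is assumed to vary like the other groups. Those of ethe-1 and mpst-7 were also lost in settings where every group kept 2 or more libraries. Leaving out each library in turn gave 4 to 4 members called at 3 h against 1 h and 0 to 0 at 6 h against 3 h. The count of all units called at 3 h against 1 h was 1241, and it was 1953 with library totals alone and 3762 with only the 2 groups. It ran from 302 (without 3 h replicate 2) to 1466 (without starved replicate 2), with 377 and 349 without 1 h replicates 1 and 2 and 502 without 3 h replicate 1. At 6 h against 3 h the count was 366, with 682 by DESeq2 and 120 to 450 with 1 library left out, of which 120 and 125 came without 3 h replicates 1 and 2. At 1 h against starved it was 5163, and 3307 to 5324 with 1 library left out, with the lowest count without 1 h replicate 2. The cause of these shifts was not tested, beyond the fewer libraries in a fit.

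Scaling by library totals alone moved the median of all units by -0.37 on the log2 scale at 3 h against 1 h, gave 246 units higher and 1707 lower in place of 633 and 608, and turned the uncalled log2 fold changes of cysl-1, cth-2 and hif-1 to -0.13, -0.21 and -0.0299. It gave 3073 higher and 1977 lower in place of 2696 and 2467 at 1 h against starved, 198 higher and 116 lower in place of 278 and 88 at 6 h against 3 h, 2014 and 3570 in place of 2896 and 2605 at 3 h against starved, and 2345 and 4959 in place of 3570 and 3303 at 6 h against starved. Against starved larvae, upper-quartile factors gave 2247 units higher and 3037 lower after 1 h, 2400 higher and 3211 lower after 3 h, and 2814 higher and 4368 lower after 6 h. The uncalled rhy-1 value at 6 h against 3 h, 0.0049, turned to -0.0851 with library totals, -0.0551 with upper-quartile factors, -0.00147 with only the 2 groups, -0.34 with barcodes 1 to 8, -0.17 without 3 h replicate 2 and -0.34 without 6 h replicate 3, in a range of -0.34 to 0.21 with 1 library left out. That of hif-1, -0.04, turned to 0.0035 without 6 h replicate 1, in a range of -0.0618 to 0.0035 with 1 library left out.

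Replicate numbers are not in the labels, and barcode sets were used as a block in their place. Deviations from the group means correlated between 0.0766 and 0.330 in 13 same-set pairs of libraries, all above 0 and 9 of them over 0.1, and between -0.330 and 0.128 in pairs of different sets, where a group of 2 gives mirrored values. The reported fit had no block because fewer than all same-set pairs passed 0.1, and a shared effect of the set may be present. With barcode set as a replicate block, 565 units were called at 6 h against 3 h in place of 366, and rhy-1 was at -0.32 in that comparison; the count of members called stayed at 4 and 0. Bin use gave 0 of 10 under all 13 alternatives run on it, and DESeq2 was not among them.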

Other observations

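Several genes of the same pathways had no single-gene unit in the bin counts but had a value in the authors' deposited FPKM table, which carries no replicate error. The mercaptopyruvate sulfurtransferase gene mpst-1 had 10.4 FPKM in starved larvae, 26.8 FPKM at 1 h, 26.6 FPKM at 3 h and 35.5 FPKM at 6 h in the authors' deposited table. Its relative mpst-4 was listed at 0 at all 4 times in the authors' deposited table. The cysteine synthase family gene cysl-4 was between 0 and 0.278 FPKM in the authors' deposited table.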
